A study of Mus musculus with 6 samples.

Results

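The 2-5A synthetase family was described here in sorted haematopoietic cells of mice that carry FLT3-ITD, with and without miR-155. The members were the 8 genes Oas1a, Oas1b, Oas1c, Oas1g, Oas2, Oas3, Oasl1 and Oasl2, picked by gene symbol from the 22475 genes of the deposited count table. The KO group was homozygous for FLT3-ITD and for a deletion of miR-155, and the FLT3-ITD group was homozygous for FLT3-ITD with wild-type miR-155. FLT3-ITD, present in both groups, is a tandem duplication inside the FLT3 receptor tyrosine kinase that leaves it signalling without its ligand. RNA came from bone marrow cells that were lineage-negative and positive for Sca1 and cKit, a gate rich in stem and progenitor cells. Each group had 3 libraries (replicates 1 to 3), and each library pooled the RNA of 3 mice, so p-values measure the spread between pools. The sources used here gave neither the age, the sex nor the strain background of the mice.

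The 2-5A synthetases are induced by interferon and sense double-stranded RNA. When bound to it, the active members join ATP into short chains of adenylates linked through unusual bonds, called 2-5A. These chains act as a second messenger of the antiviral response. In mice the Oas1 gene is present as a cluster of paralogs, of which only some make 2-5A.

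Library totals ran from 6843129 to 7601317 counts in the KO and from 8136914 to 9443615 in FLT3-ITD. The 8 members together took 2924, 2604 and 1952 counts in KO replicates 1, 2 and 3 and 2468, 1947 and 1635 counts in FLT3-ITD replicates 1, 2 and 3. The transcript at the miR-155 locus, Gm26667, had 4, 14 and 4 counts in the KO and 33, 48 and 36 in FLT3-ITD, and the Mir155 hairpin had 0, 0 and 0 counts in the KO and 2, 1 and 0 in FLT3-ITD. The log2 fold change of Gm26667 was -2.14 (edgeR adjusted p 0.274), or -2.20 with the replicate number as a block (0.0377). The gate genes were present in all libraries, with Kit at 1583 counts or more and Ly6a, which encodes Sca1, at 799 or more. The summed level of 9 stem and progenitor markers was 1690 and 1717 CPM in KO replicate 1 and FLT3-ITD replicate 1, below the 2156 to 2305 CPM of the other 4 libraries. Both libraries of number 1 thus stood apart. Results of the members and of the partner, sensor and signalling genes below are given with and without them where it changed a call. For other genes, among them Gm26667 and the cell type markers, such fits are not reported here. Deviations from the group means also correlated between libraries of equal number, and the fit with that number as a block is given beside the fit on group alone. CPM values are counts scaled to a common library size after TMM normalization.

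Most of the family was higher in the KO. Of the 8 members, all of which passed the low-count filter, 7 had a higher level in the KO in each of the 3 pairs of libraries of equal number, whereas 15.1% of the 13217 genes tested did. In 5 members (Oas1b, Oas1g, Oas3, Oasl1 and Oasl2) all KO libraries lay above all FLT3-ITD libraries, against 3.43% of genes tested. The pairs were read from the data, and the members were chosen with earlier results of these data known. The levels of most members also correlated with each other, so the shares given here are descriptions and not tests of the family. The median log2 fold change of the members was 0.58, beside 0.001 over all genes tested. No member passed an adjusted p of 0.05 in edgeR on group alone (0 of 8, against 0.0151% of genes tested called higher), although 5 had an unadjusted p under 0.05 (against 1.41%), and DESeq2 and limma-voom also called 0. None was called lower on group alone either, where 0.144% of genes were. With the replicate block 4 members rose, Oas1a, Oas2, Oas3 and Oasl1, against 0.318% of genes tested called higher, and none fell, against 1.04% called lower. Without KO replicate 1 the median of the members was 0.36, and all 8 had a positive value. In these bulk samples, more cells of a type and more RNA per cell cannot be told apart.

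**Figure D1:**
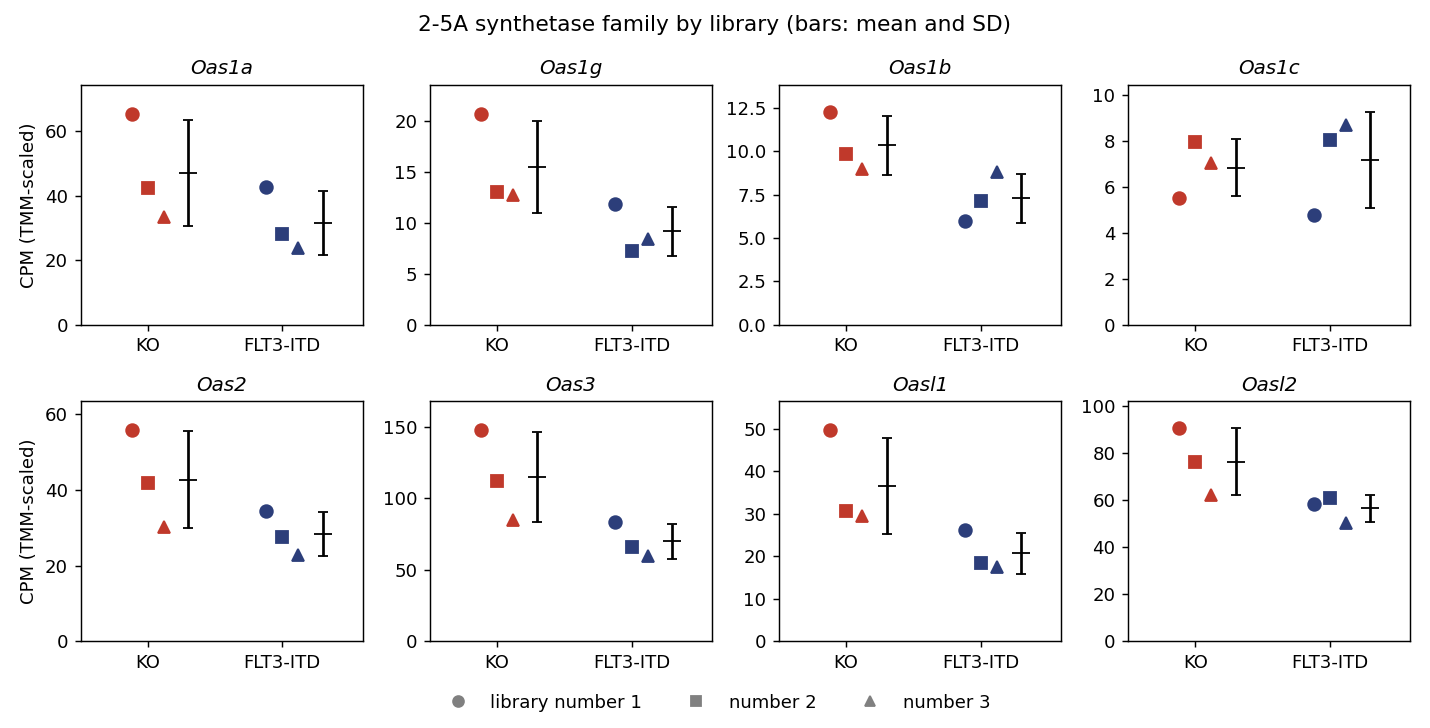
TMM-scaled CPM (linear axis) of each member in the 3 KO and 3 FLT3-ITD libraries, with the marker shape giving the library number and black bars the mean and SD. KO replicate 1 was the highest of all libraries for every member except Oas1c, where it was the second lowest at 5.52 CPM.

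Oas1a and Oas1g are the mouse Oas1 paralogs known to make 2-5A. Oas1a (ENSMUSG00000052776, chromosome 5, 120896256 to 120907521, minus strand, GRCm38) had 65.4, 42.4 and 33.4 CPM in the KO, against 42.8, 28.1 and 23.7 CPM in FLT3-ITD. The groups overlapped because FLT3-ITD replicate 1 was higher than KO replicates 2 and 3. Oas1a averaged 47.1 ± 16.5 CPM in the KO and 31.5 ± 9.998 CPM in FLT3-ITD (SD, n = 3 each), a log2 fold change of 0.57 ± 0.30 (SE, edgeR: adjusted p 0.9995). With the replicate block the log2 fold change was 0.57 ± 0.08 (SE) and the adjusted p in edgeR 0.0298. Oas1g (chromosome 5, 120876142 to 120887613, minus strand) had 20.7, 13.1 and 12.7 CPM in the KO, against 11.8, 7.24 and 8.43 CPM in FLT3-ITD. All 3 KO libraries lay above all 3 FLT3-ITD libraries. For Oas1g edgeR gave a log2 fold change of 0.75 ± 0.27 (SE) at an adjusted p of 0.9995, or of 0.0725 with the block. The transcripts of this pair are near copies: 57.6% of the 50-base stretches of Oas1a and 45.7% of those of Oas1g also occurred in another member, mostly in each other. The sources used here do not say how reads that fit both genes were counted, so the division of counts between Oas1a and Oas1g is uncertain.

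Oas1b and Oas1c are paralogs that are not known to make 2-5A. Oas1b is the flavivirus resistance gene of mice, which carries a premature stop codon in many laboratory strains, and the annotation lists it as a polymorphic pseudogene (chromosome 5, 120812635 to 120824163, plus strand). It had 12.3, 9.86 and 8.96 CPM in the KO, against 5.98, 7.12 and 8.80 CPM in FLT3-ITD. The groups did not overlap, but KO replicate 3 and FLT3-ITD replicate 3 nearly met. Oas1b had a log2 fold change of 0.50 ± 0.22 (SE), at an edgeR adjusted p of 0.9995, or of 0.549 with the block. Without both libraries of number 1 its log2 fold change was 0.25. Oas1c (chromosome 5, 120800194 to 120812514, minus strand) had 5.52, 7.94 and 7.03 CPM in the KO, against 4.78, 8.04 and 8.68 CPM in FLT3-ITD. The groups overlapped throughout, and the libraries of number 1 were the lowest of both. Its log2 fold change was -0.06, with a 95% interval of -0.72 to 0.59 and an adjusted p in edgeR of 0.9995, and leaving out KO replicate 1 gave 0.07. The annotation places Gm43069, Gm43068 and Gm13822 on the opposite strand of Oas1c, Oas2 and Oasl1, and the sources used here do not say whether strand was used in counting, so reads of these overlaps cannot be told apart. Oas1h, another gene of the cluster, had 1 count in KO replicate 3 and 0 in the other libraries.

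Promoters of 6 members were in the RefSeq table (GRCm38.p6), each running from 250 bases before to 50 bases after the annotated start. The 4 that hold a searched motif are shown. Capitals mark matches to GAAA, any 2 bases and GAAA again, the core of the interferon-stimulated response element (ISRE), and in Oas1a also 1 match to TTCNNNGAA, the gamma-activated site, searched on both strands and allowed to overlap.
Oas1a: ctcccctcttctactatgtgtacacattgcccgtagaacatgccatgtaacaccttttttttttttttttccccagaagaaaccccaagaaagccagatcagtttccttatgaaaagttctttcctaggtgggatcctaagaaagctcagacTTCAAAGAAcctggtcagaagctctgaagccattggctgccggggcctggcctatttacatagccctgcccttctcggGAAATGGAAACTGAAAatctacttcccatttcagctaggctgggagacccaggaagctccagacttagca
Oas1g: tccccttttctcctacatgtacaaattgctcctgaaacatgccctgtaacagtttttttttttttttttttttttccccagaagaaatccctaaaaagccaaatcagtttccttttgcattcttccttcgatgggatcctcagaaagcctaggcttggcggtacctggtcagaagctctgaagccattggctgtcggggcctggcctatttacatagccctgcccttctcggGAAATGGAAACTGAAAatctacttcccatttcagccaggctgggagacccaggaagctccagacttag
Oas1c: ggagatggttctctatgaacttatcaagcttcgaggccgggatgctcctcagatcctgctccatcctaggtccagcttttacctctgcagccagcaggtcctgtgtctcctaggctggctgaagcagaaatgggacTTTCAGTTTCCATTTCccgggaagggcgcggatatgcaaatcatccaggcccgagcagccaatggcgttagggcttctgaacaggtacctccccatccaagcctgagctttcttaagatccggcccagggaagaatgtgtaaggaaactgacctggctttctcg
Oas3: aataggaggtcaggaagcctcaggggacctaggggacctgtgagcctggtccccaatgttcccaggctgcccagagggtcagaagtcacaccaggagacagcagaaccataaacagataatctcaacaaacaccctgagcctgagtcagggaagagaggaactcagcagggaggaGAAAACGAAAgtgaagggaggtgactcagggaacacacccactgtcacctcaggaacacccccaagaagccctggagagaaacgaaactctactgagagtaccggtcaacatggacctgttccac

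Oas1a (chr5:120907476-120907775, minus strand) and Oas1g (chr5:120887564-120887863, minus strand) held the same 16-base run of 2 overlapping matches, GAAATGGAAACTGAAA, which began 20 bases before the start of Oas1a and 18 bases before that of Oas1g. The same run stood in the window of Oas1c (chr5:120812465-120812764, minus strand) on the other strand, as TTTCAGTTTCCATTTC, and began 114 bases before the start of Oas1c. Oas1b, which has no entry in the promoter table, is transcribed the other way from a start 121 bases from that of Oas1c. Read in the direction of Oas1b, the run began 22 bases before its annotated start, a spacing close to that at Oas1a and Oas1g. The log2 fold changes were 0.57 for Oas1a, 0.75 for Oas1g, 0.50 for Oas1b and -0.06 for Oas1c. Whether the run bears on these values was not tested. The difference between Oas1c and the others was not tested, and its 95% interval, up to 0.59, holds the values of Oas1a and Oas1b. Among all 32851 windows of the table the run occurred in 7, which belonged to Oas1a, Oas1g, Oas1c, Apol9a and Apol9b. Oas3 (chr5:120777610-120777909, minus strand) held 1 match, GAAAACGAAA, that began 75 bases before the start. The windows of Oasl1 and Oasl2, which had log2 fold changes of 0.82 and 0.43, held no match of either motif. In all, 4 of the 6 members had a match to the ISRE core, against 3.22% of the 11877 windows of tested genes, and 1 had a match to TTCNNNGAA, against 6.93%. A match is a description of letters and not evidence of binding.

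Oas2 and Oas3 are the larger synthetases, built from repeated synthetase units. Oas3 (ENSMUSG00000032661, chromosome 5, 120753098 to 120777661, minus strand) had 148, 112 and 84.9 CPM in the KO, against 83.7, 66.1 and 59.6 CPM in FLT3-ITD. The lowest KO library lay just above the highest FLT3-ITD library. Oas3 averaged 115 ± 31.6 CPM in the KO and 69.8 ± 12.4 CPM in FLT3-ITD (SD, n = 3 each), a log2 fold change of 0.72 ± 0.21 (SE, edgeR: adjusted p 0.714). With the block Oas3 rose by 0.70 ± 0.08 (SE, edgeR: adjusted p 0.0115), and without both libraries of number 1 by 0.64 (blocked, adjusted p 0.0120). Oas2 (chromosome 5, 120730333 to 120749853, minus strand) had 55.9, 41.9 and 30.3 CPM in the KO, against 34.4, 27.7 and 22.8 CPM in FLT3-ITD. Only KO replicate 3 fell within the FLT3-ITD range. For Oas2 edgeR gave a log2 fold change of 0.59 ± 0.24 (SE) at an adjusted p of 0.9995, or of 0.0446 with the block, where it rose by 0.58. In the authors' deposited table Oas3 had a log2 fold change of 0.72 with an adjusted p of 0.199, the lowest of the family.

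Oasl1 and Oasl2 carry ubiquitin-like domains beside the synthetase fold. Mouse Oasl1 makes no 2-5A and restrains translation of Irf7, the transcription factor that amplifies interferon production, whereas mouse Oasl2 is an active synthetase. Oasl1 (ENSMUSG00000041827, chromosome 5, 114923240 to 114937915, plus strand) had 49.7, 30.6 and 29.5 CPM in the KO, against 26.2, 18.4 and 17.5 CPM in FLT3-ITD. The groups did not overlap. Oasl1 averaged 36.6 ± 11.3 CPM in the KO and 20.7 ± 4.79 CPM in FLT3-ITD (SD, n = 3 each), and its log2 fold change of 0.82 ± 0.25 (SE) was the highest of the family on group alone (adjusted p 0.745 in edgeR). With the block Oasl1 rose by 0.81 ± 0.10 (SE, edgeR: adjusted p 0.0140), and without both libraries of number 1 by 0.75 (blocked, adjusted p 0.0276). Oasl2 (chromosome 5, 114896936 to 114912234, plus strand) had 90.7, 76.1 and 62.3 CPM in the KO, against 58.5, 60.9 and 50.2 CPM in FLT3-ITD. Its groups did not overlap either, and its log2 fold change of 0.43 ± 0.15 (SE) was the second lowest of the family, with an adjusted p in edgeR of 0.978, or 0.112 with the block.

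**Figure D2:**
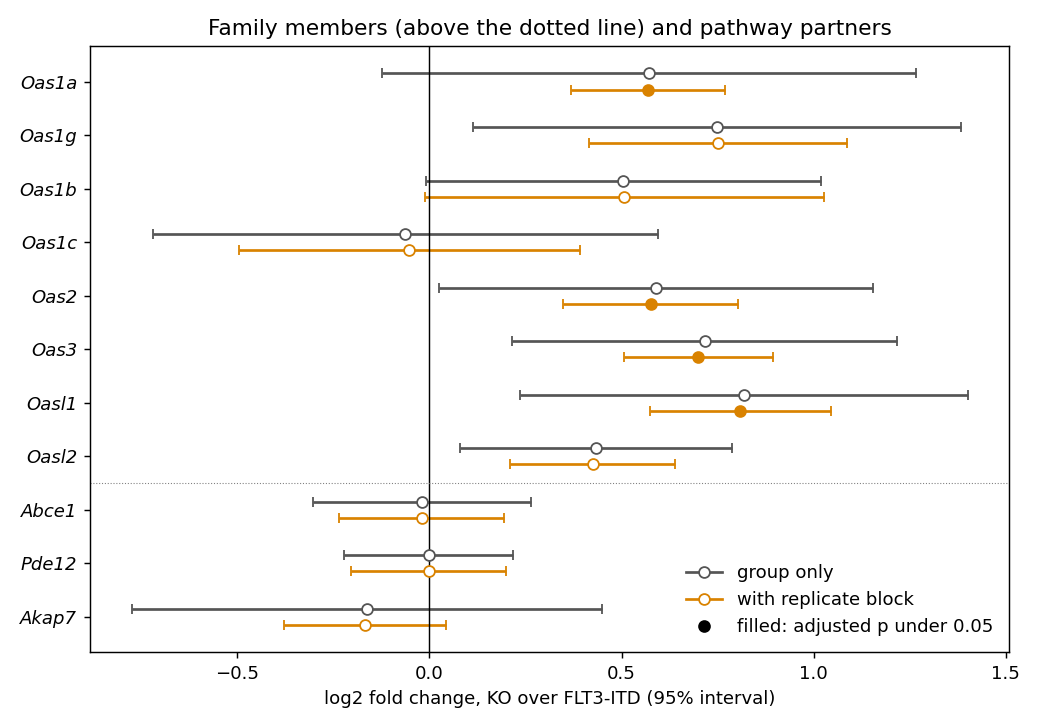
Log2 fold change of KO over FLT3-ITD with its 95% interval for the 8 members and, under the dotted line, 3 pathway partners, from edgeR on group alone (grey) and with the replicate block (orange). Filled points have an adjusted p under 0.05: Oas1a, Oas2, Oas3 and Oasl1, each with the block.

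The ratio within each pair of equal number varied more in some members than in others. Oasl1 had log2 ratios of KO over FLT3-ITD, from log2 CPM with a prior count of 2, of 0.92, 0.73 and 0.75 in pairs 1, 2 and 3, and Oas1a 0.61, 0.59 and 0.49. Oas3 had 0.82, 0.75 and 0.51, and Oas2 had 0.70, 0.59 and 0.40. In these 4 genes, which passed with the block, no ratio was below 0.40. The blocked fit favours steady ratios, so this is in part built into the call. Oas1g, which did not pass with the block, had 0.79, 0.83 and 0.57, and Oasl2, which did not pass either, had 0.63, 0.32 and 0.31. Oas1b spread from 1.01 in pair 1 to 0.03 in pair 3, and Oas1c from 0.20 in pair 1 to -0.29 in pair 3. Of the 4 blocked calls, those of Oas3 and Oasl1 remained without both libraries of number 1, and those of Oas1a and Oas2 did not (adjusted p 0.0565 and 0.0943 in edgeR). Without both libraries of number 2, 0 members passed in the blocked fit of edgeR, with 6 at an unadjusted p under 0.05, and that fit called 4 genes higher and 94 lower in the whole table. Without both libraries of number 3, 6 members passed, all but Oas1b and Oas1c, in a fit that called 236 genes higher and 235 lower.

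**Figure D3:**
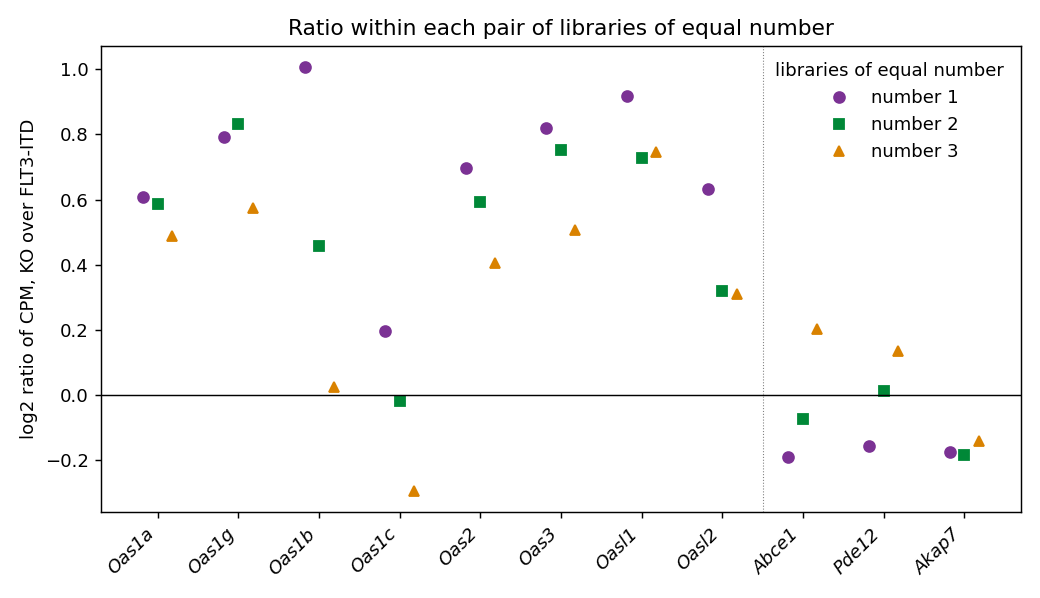
Log2 ratio of CPM, KO over FLT3-ITD, within the 3 pairs of libraries of equal number, for the members (left of the dotted line) and the pathway partners. The points of 7 members lie above 0 in all 3 pairs, whereas those of Oas1c lie on both sides.

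Levels of different members were compared per length, on the authors' FPKM values. In the KO the order was Oas1a (24.7 ± 7.71), Oas3 (21.8 ± 5.26), Oasl2 (19.6 ± 3.05), Oasl1 (13.9 ± 3.70), Oas2 (9.52 ± 2.54), Oas1g (6.55 ± 1.63), Oas1b (5.17 ± 0.659) and Oas1c (2.85 ± 0.610 FPKM, SD, n = 3). In FLT3-ITD the order was Oas1a (16.6 ± 4.92), Oasl2 (14.5 ± 1.45), Oas3 (13.3 ± 2.10), Oasl1 (7.89 ± 1.65), Oas2 (6.34 ± 1.19), Oas1g (3.90 ± 0.929), Oas1b (3.66 ± 0.760) and Oas1c (2.99 ± 0.915 FPKM, SD, n = 3). Neighbours in this order overlapped in their ranges in the KO, apart from Oas1b over Oas1c. In FLT3-ITD the ranges of Oas3 and Oasl1 and those of Oas2 and Oas1g did not overlap, and those of the other neighbours did. Within single libraries Oas1a lay above Oas3, Oasl1 above Oas2 and Oas1b above Oas1c in 6 of 6 libraries each. Oas1a lay above Oasl2, Oas3 above Oasl2 and Oas1g above Oas1b in 4 of 6 libraries each. The summed level was 129, 101 and 82.1 FPKM in the KO, against 79.5, 67.5 and 60.7 FPKM in FLT3-ITD, so the lowest KO library lay above the highest FLT3-ITD library. Oas1a, Oas3 and Oasl2 supplied most of it in each library. Oas3 made up 20.9 ± 0.820% of the sum in the KO and 19.2 ± 0.385% in FLT3-ITD, and Oasl1 13.3 ± 1.21% in the KO and 11.3 ± 0.881% in FLT3-ITD. Oasl2 made up 19.0 ± 1.5% in the KO and 21.2 ± 2.57% in FLT3-ITD, and Oas1a 23.5 ± 1.97% in the KO and 23.7 ± 3.67% in FLT3-ITD (SD, n = 3 each).

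**Figure D4:**
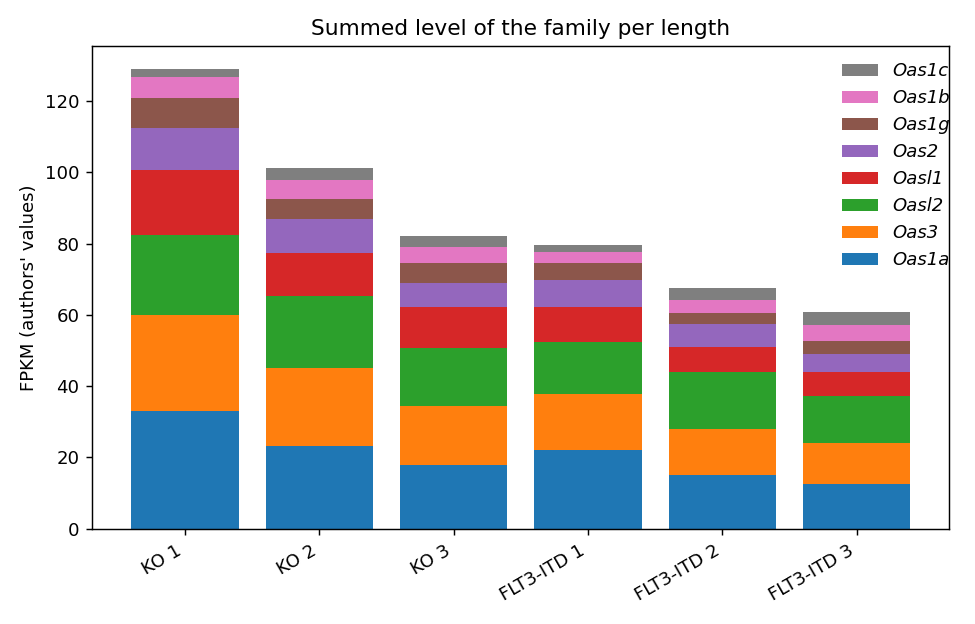
Summed FPKM of the 8 members per library, stacked by member, with KO libraries on the left and FLT3-ITD libraries on the right. The sums run from 82.1 to 129 FPKM in the KO and from 60.7 to 79.5 FPKM in FLT3-ITD.

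Another 3 genes, set beside the family as pathway partners, had log2 fold changes between -0.16 and -0.002. Abce1, a ribosome recycling factor, had a log2 fold change of -0.02 with a 95% interval of -0.30 to 0.26. Pde12, a phosphodiesterase that degrades 2-5A, had -0.002 with an interval of -0.22 to 0.22. Akap7, an anchoring protein with a 2-5A phosphodiesterase domain, had -0.16 with an interval of -0.78 to 0.45, and was lowest in the libraries of number 1 at 20.8 CPM in the KO and 23.6 CPM in FLT3-ITD. Of these 3 genes 0 passed in edgeR with or without the block, and 0 had an unadjusted p under 0.05 on group alone. With the block 0.318% of genes tested were called higher and 1.04% lower, so 0 of 3 is near the share over all genes. None of their promoters had a match to either motif.

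The other sensors of foreign nucleic acid were mostly higher in the KO as well. Of 10 measured genes 9 had a positive log2 fold change on group alone (50.2% of all genes tested did), and the median was 0.23. In 7 of the 10 the KO was higher in all 3 pairs of equal number, against 15.1% of genes tested. In edgeR on group alone 0 passed, and 3 were higher at an unadjusted p under 0.05, against 1.41% of genes tested. Without KO replicate 1 the median was 0.14. Ifih1, the sensor of long double-stranded RNA, had 148, 118 and 108 CPM in the KO, against 110, 92.2 and 80.3 CPM in FLT3-ITD. It rose with the block by 0.40 ± 0.06 (SE, edgeR: adjusted p 0.0377, 0.9995 without the block). Of the 10 genes it was the 1 called with the block, against 0.318% of genes tested called higher. That call was lost without both libraries of number 1 (0.0553) and of number 2 (0.402), and without KO replicate 1 the log2 fold change of Ifih1 on group alone was 0.26. Zbp1, a sensor of Z-form nucleic acid, had 0.83 ± 0.27 (SE, edgeR: adjusted p 0.883, 0.0739 with the block). Eif2ak2, the kinase PKR that halts translation on double-stranded RNA, had 0.32 ± 0.13 (SE, edgeR: adjusted p 0.9995, 0.145 with the block), or 0.18 without KO replicate 1. Ddx58, which encodes RIG-I, had -0.11 with a 95% interval of -0.44 to 0.22. The value of Tlr3, the endosomal receptor of double-stranded RNA, rested on KO replicate 1, with 235, 98.0 and 85.2 CPM in the KO and 138, 96.0 and 126 CPM in FLT3-ITD, and leaving that library out turned its log2 fold change of 0.21 to -0.39.

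Among 11 genes of interferon signalling, 10 had a positive log2 fold change (50.2% of all genes tested did). The median was 0.25, or 0.11 without KO replicate 1. In 8 of the 11 the KO was higher in all 3 pairs of equal number, against 15.1% of genes tested. In 1 it was lower in all 3, against 16.5%. None passed in edgeR on group alone (0 of 11), and 3 were higher at an unadjusted p under 0.05, against 1.41% of genes tested. With the block 2 rose, against 0.318% of genes tested called higher. Irf7 had 383, 204 and 164 CPM in the KO, against 185, 109 and 103 CPM in FLT3-ITD. Its groups overlapped, since FLT3-ITD replicate 1 exceeded KO replicate 3. With the block Irf7 rose by 0.88 ± 0.09 (SE, edgeR: adjusted p 0.00477, 0.9995 without the block), a call lost without both libraries of number 2 (0.0851). Usp18, an inhibitor of the type I interferon receptor, had 92.3, 53.4 and 54.9 CPM in the KO, against 50.3, 29.9 and 28.7 CPM in FLT3-ITD. It rose with the block by 0.88 ± 0.08 (SE, edgeR: adjusted p 0.00314, 0.883 without the block), and also without both libraries of any 1 number. Without KO replicate 1 the values on group alone were 0.48 for Irf7 and 0.58 for Usp18. Stat2 (0.39 ± 0.24) and Irf9 (0.33 ± 0.17, log2 fold change and SE), transcription factors of the interferon response, did not pass in either fit of edgeR. Their adjusted p with the block were 0.272 for Stat2 and 0.332 for Irf9. Without KO replicate 1 their log2 fold changes were 0.10 for Stat2 and 0.11 for Irf9. Jak1, a kinase of the receptor, had -0.06 with a 95% interval of -0.28 to 0.16.

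The genes closest to the family in their pattern were sought among 12626 other genes with a mean log2 CPM of at least 1, by Pearson correlation with the members' mean standardized level. Over these 6 libraries, which also differ by group and correlate by number, the closest were Asprv1 (r = 0.990), Zfp382 (r = 0.988), Rnh1 (r = 0.987), Irgm1 (r = 0.986) and Parp9 (r = 0.984). These r are descriptions with no test. Rnh1 encodes a cytosolic inhibitor of ribonucleases, Irgm1 an interferon-inducible GTPase and Parp9 an interferon-inducible protein of the ADP-ribosyltransferase family. Irgm1 had 186, 144 and 130 CPM in the KO, against 114, 114 and 101 CPM in FLT3-ITD, and Rnh1 had 156, 135 and 130 CPM in the KO, against 120, 113 and 114 CPM in FLT3-ITD. None of the 5 passed in edgeR, with or without the block, where 0.318% of genes tested were called higher with the block.

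All 8 members lie on chromosome 5, in 2 clusters. Oasl1 and Oasl2 span 40980 bases and the other 6 span 177189 bases. Of the 12 nearest tested genes, 3 on each side of each cluster, 0 passed in edgeR with or without the block. Of all genes tested, 0.0151% were called higher and 0.144% lower on group alone, and 0.318% and 1.04% with the block. A count of 0 of 12 is thus near the share over all genes. Their log2 fold changes ran from -0.20 to 0.21, among them 0.11 for Git2, -0.15 for Rasal1 and 0.05 for Ptpn11, whereas those of all members except Oas1c were at least 0.43.

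Markers of other cell types were set beside the family, since the sort can hold other cells. All 13 macrophage markers had at least 1 count in every library. Cd5l, which failed the low-count filter, had 49, 1 and 4 counts in the KO and 144, 2 and 1 in FLT3-ITD. The summed level of the 13 markers was 912, 292 and 400 CPM in the KO, against 1179, 219 and 251 CPM in FLT3-ITD. The libraries of number 1 were thus the highest of both groups, as they were for Oas1a, Oas1g, Oas2, Oas3 and Oasl1. The macrophage sum was lower in the KO in pair 1 and higher in pairs 2 and 3, while that of the family, at 448, 334 and 269 CPM in the KO against 268, 224 and 200 CPM in FLT3-ITD, was higher in all 3 pairs. All 11 dendritic cell markers were detected in every library, with sums of 8571, 4215 and 3557 CPM in the KO and 5019, 3996 and 4396 CPM in FLT3-ITD. KO replicate 1 was the highest library for both this list and the family. The dendritic cell sum was higher in the KO in pairs 1 and 2 and lower in pair 3. Most of it was Cd74, at 5781, 2792 and 2195 CPM in the KO and 3194, 2618 and 2898 CPM in FLT3-ITD. Of the 11 genes, which include Flt3 from the stem and progenitor list, 8 had a positive log2 fold change and 3 a negative one. Bst2, also an interferon-inducible gene, rose with the block by 0.42 (edgeR adjusted p 0.0475, 0.9995 without the block). It was the 1 gene of this list called with the block, against 0.318% of genes tested called higher. Sums of B and plasma cell markers were 661 to 1702 CPM in the KO, below the 3009 to 4342 CPM in FLT3-ITD, and all 6 tested had a negative log2 fold change. With the block 3 of them fell, against 1.04% of genes tested called lower. Their log2 fold changes were -2.07 for Igj, -2.02 for Mzb1 and -1.54 for Prdm1 (edgeR with the block, adjusted p 0.00432, 0.00317 and 0.0185). Without the block the adjusted p in edgeR were 0.210, 0.140 and 0.341. Of the T and NK cell markers, Gzma had at most 3 counts in any library, and the sum over the 6 markers was 39.4 to 70.1 CPM in the KO and 61.0 to 71.3 CPM in FLT3-ITD. Neutrophil and monocyte markers summed to 3569 to 3824 CPM in the KO and 3180 to 4436 CPM in FLT3-ITD, with a median log2 fold change of -0.64 over the 9 tested. S100a8, S100a9, Camp, Ngp and Ltf, neutrophil genes, were lower in all KO libraries than in all FLT3-ITD libraries, against 4.79% of genes tested. Their log2 fold changes were -0.64 to -0.84, and none passed with or without the block. Ly6g, not tested, was lower as well, at 2, 2 and 2 counts in the KO and 6, 12 and 4 in FLT3-ITD. The groups overlapped for Mpo (0.08), Elane (-0.07), Ly6c2 (0.35) and Ccr2 (0.20, log2 fold changes). Erythroid markers summed to 2.95 to 13.8 CPM in the KO and 4.13 to 20.5 CPM in FLT3-ITD. The part of any of these cells in the family's values was not tested.

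**Figure D5:**
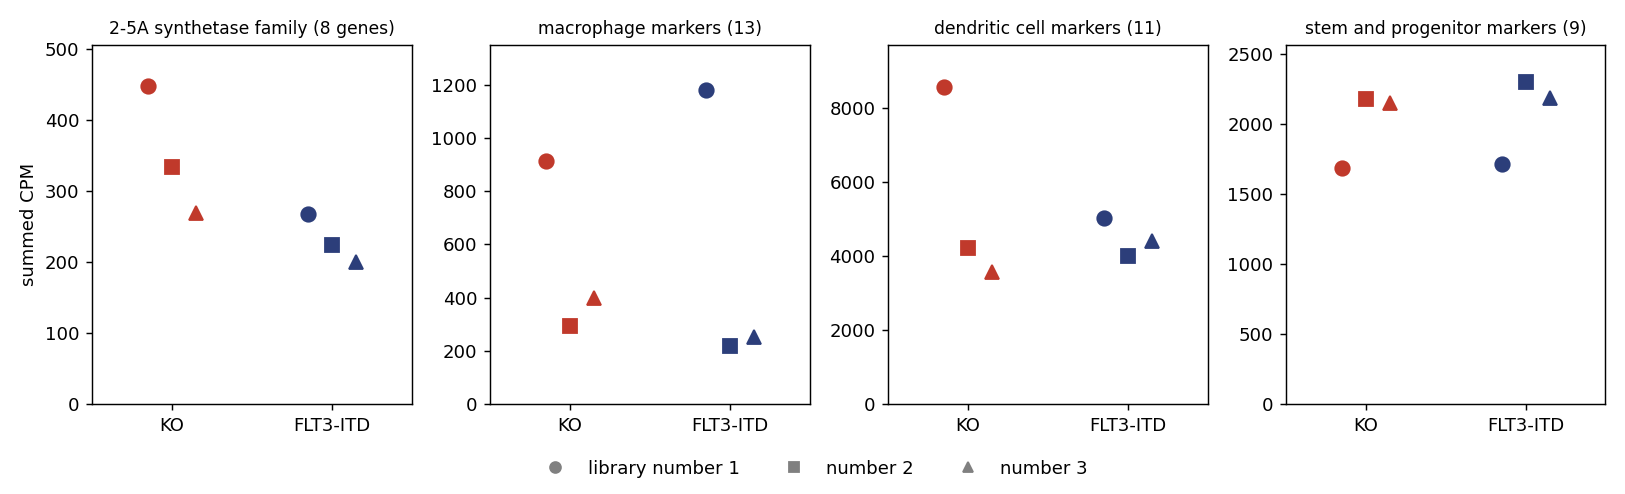
Summed CPM (linear axes) of the family and of 3 fixed marker lists in each library, with the marker shape giving the library number. KO replicate 1 is highest for the family (448 CPM) and for the dendritic cell markers (8571 CPM), and FLT3-ITD replicate 1 for the macrophage markers (1179 CPM).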

How the data were processed

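RNA-seq was done on 6 libraries, 3 KO and 3 FLT3-ITD, grouped by their titles. Raw counts per gene and FPKM values were made and deposited by the authors, per the file headers, with the authors' own log2 fold change and adjusted p-value. The submitters' processing notes name mm10 as the build and the tools Novoalign 2.08.01 and DESeq2 1.10.1; the sources used here do not give the read counter, its annotation or its use of strand. Coordinates came from GENCODE M21 (GRCm38, the assembly of mm10), where 21966 of 22475 identifiers were found. Promoters came from RefSeq (GRCm38.p6).

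Counts were tested in edgeR 4.0.16 (R 4.3.3) by the quasi-likelihood F test (two-sided) on group alone, after TMM scaling and filterByExpr, which asked for a count of 10 and a total of 15. The Benjamini-Hochberg adjustment covered all 13217 genes tested, at a threshold of 0.05. The SE was derived from the F statistic. Log2 CPM values used a prior count of 2. The fits with and without the block were also run on simulated data that held no pair effect. The share recovered at changes of the family's size is not reported here.

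Both groups use numbers 1 to 3, without a stated meaning. Deviations from the group means correlated by r = 0.573, 0.526 and 0.219 in pairs 1, 2 and 3, each above 0.1. Between libraries of unequal number r ran from -0.512 to 0.133, the highest for KO replicate 2 with FLT3-ITD replicate 3. Deviations within a group sum to 0, so these r are not independent. The numbers were read as pairs from the data alone, and pair 3 was the weakest. Blocked values (2 residual degrees of freedom, against 4) are given where they change a call. FPKM were only described.

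Members and gene lists were chosen with earlier results of these data known. The genes named are the members, the listed partners, sensors and signalling genes, the 5 most alike, the 3 nearest tested genes on each side of each cluster, and markers; some listed genes are not reported here. DESeq2 1.42.0, limma 3.58.1 (voom), other size factors, other filters, the block and leaving out libraries were the alternatives. A count of 0 allows up to 3 counts, or 0.326 to 0.460 CPM, for counting error only.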

Additional observations from a re-analysis of the deposited data

How the results depend on the processing

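With the replicate block, 4 members rose in place of 0, as did 1 of 10 sensing genes and 2 of 11 signalling genes, and 180 genes of the whole table passed in place of 21. Among the marker genes it added the falls of Igj, Mzb1 and Prdm1 and the rise of Bst2; other listed genes kept their calls. The combinations of the block with leaving out a pair were chosen after seeing the data: 2 members, 0 sensing and 2 signalling genes rose without number 1 (205 genes in all), 0, 0 and 1 without number 2 (98 in all), and 6, 2 and 4 without number 3 (471 in all). Without a block, leaving out both libraries of number 1 gave 1 signalling gene, Usp18. Over the whole table DESeq2 called 131 genes, and edgeR without a low-count filter 97. Leaving out 1 library gave 0 to 27 genes and 0 members in each such fit, with fewer samples. Without FLT3-ITD replicate 1 or 3, 0 genes passed in edgeR (766 and 358 at an unadjusted p under 0.05). Why the counts moved was not tested.

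Of 104 values of the 8 members under these settings, the pairs left out with the block aside, 97 kept their direction and side of the threshold, 4 newly passed (with the block) and 3 reversed. All 3 were of Oas1c, whose value ranged from -0.283 to 0.103 when 1 library was left out; it was 0.0834 with the block and without number 3. Without KO replicate 1 the log2 fold changes of Oas1a, Oas1g, Oas2 and Oasl1 were 0.27, 0.49, 0.35 and 0.54, each over 1.5 times smaller; without FLT3-ITD replicate 1 that of Oas1a was 0.86. Among the other listed genes 14 of 312 values reversed, none of a gene that passed. Leaving out 1 library gave -0.104 to 0.0785 for Abce1, -0.0467 to 0.0516 for Pde12, -0.364 to 0.0466 for Akap7, -0.386 to 0.472 for Tlr3, -0.113 to 0.00960 for Jak1 and -0.0498 to 0.351 for Tyk2. Without both libraries of number 1 the values were 0.0767 for Abce1, 0.0749 for Pde12, -0.274 for Tlr3 and -0.0368 for Tyk2, and with the block as well 0.0674, 0.0759, -0.264 and -0.0446. Abce1 was 0.000437 with the block and without number 2, and Pde12 0.00182 with the stricter filter.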
